A study of Mus musculus with 24 samples.

Results

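The comparison described here asks what the addition of bisphenol A (BPA) did to transcript levels in cells that had also been given potassium bromate (KBrO3), 4 hr after KBrO3 was applied. It rests on 6 of the 24 arrays in the study, 3 of cells given KBrO3 alone and 3 of cells co-exposed to KBrO3 and BPA, and the arrays were taken by their labels. All cells were Ku70-/- mouse embryonic fibroblasts (MEFs), a cell line that lacks Ku70 (gene Xrcc6), part of the protein that opens repair of double-strand breaks by end joining. Both groups received 20 mM KBrO3 for 1 hr, were washed and then had 3 hr to repair. The co-exposed cells were also held in 150 μM BPA for 1 hr before KBrO3, with KBrO3, and throughout repair. The study prepared BPA in ethanol and does not say whether cells given KBrO3 alone received ethanol. Any effect of ethanol was not tested. The same set of 15 arrays also holds 3 of untreated cells and 3 of each exposure at 24 hr, and the second set of 9 arrays, with its own untreated cells, holds BPA alone. One cell line was used and no line with intact Ku70 was compared.

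KBrO3 is an oxidizing agent that oxidizes bases in DNA and depletes reduced thiols, and BPA is a plastics monomer that binds several nuclear receptors. Cells meet shortage of amino acids, misfolded protein or oxidant stress by slowing translation through phosphorylated eIF2α, which lets the transcription factor ATF4 be made. ATF4 then turns on genes for amino acid uptake and synthesis, tRNA charging and glutathione turnover, together with stress regulators such as Ddit3 and Trib3, and the whole program is called the integrated stress response. Levels below are log2 signals minus the 75th percentile of the array, so that a difference of 1 is a doubling, and they compare samples for 1 gene but not genes with each other.

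Xrcc6, the gene deleted in this line, was at −0.60, −0.54 and −0.59 on the KBrO3 arrays and at −0.60, −0.50 and −0.56 on the co-exposed arrays, a difference of 0.024 (SE 0.052). Its probe was not placed relative to the deleted part of the gene, so this signal checks no label. All 10 fibroblast markers listed, among them Col1a1, Col1a2 and Dcn, were well above background on all 6 arrays, whereas Ptprc, Cdh1, Epcam, Pecam1, Cdh5, Adipoq and Ckm, which define other cell types, were not well above background on all arrays of either group. Other markers of those lists passed that filter, namely 3 of 7 for macrophages (Cd68, Csf1r, Lyz2), 4 of 7 for epithelium (Krt5, Krt8, Krt14, Krt19), 3 of 6 for endothelium (Kdr, Tek, Vwf), 2 of 5 for adipocytes (Fabp4, Cidec) and 5 of 6 for skeletal muscle. Of the fibroblast markers 8 had differences below 0 (median −0.28), with S100a4 at −0.72, Vim at −0.62 and Col1a2 at −0.46, none of these called. The 1 call among these 10, beside 6.25% of all genes tested, was the protease Fap (1.14), which did not pass with normexp, in the fit to the 6 arrays alone or with slide as a random block, and 0 genes of the macrophage, epithelial, endothelial, adipocyte and skeletal muscle lists were called. Krt8, Cidec, Myog and Myh1 were well above background on every co-exposed array and on 0 or 1 of the KBrO3 arrays. The share of spots well above background was 60.5% to 62.2% on the KBrO3 arrays and 64.5% to 67.2% on the co-exposed arrays. The 3 KBrO3 arrays lay on 1 slide and the 3 co-exposed arrays on another, so the effects of slide and of BPA cannot be told apart here. The groups of untreated cells, KBrO3 at 24 hr and co-exposure at 24 hr were each split over 2 slides, and in them 5.74% to 12.2% of genes differed between the slides by more than 1.5-fold. None of these pairs of slides is the pair that holds the compared groups.

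Levels of 862 of 13791 protein-coding genes tested differed between the exposures, of which 400 were higher and 462 lower in co-exposed cells. A gene was called when its probe had a Bonferroni-adjusted p below 0.01 in limma and differed by more than 1.5-fold, and 6.25% of the genes tested were called (2.90% higher and 3.35% lower). More than 2-fold differences were found for 243 called genes and more than 3-fold differences for 31. Among called genes well above background on all 6 arrays, the largest rises were in Chac1, an enzyme that degrades glutathione, and Slc16a6, a monocarboxylate transporter. The largest falls among them were in Dio3, which inactivates thyroid hormone, and Pdk4, a kinase that holds back pyruvate oxidation. Of the called genes 46.4% were higher, but with arrays scaled to their medians 25.6% of 450 called genes were, and that scaling moved the median difference of all genes from −0.017 to −0.16. Normexp background correction left 53 called genes, the fit with slide as a random block 266 and the fit to the 6 arrays alone 311. Leaving out any 1 of the 6 arrays left 495 to 542.

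**Figure D1:**
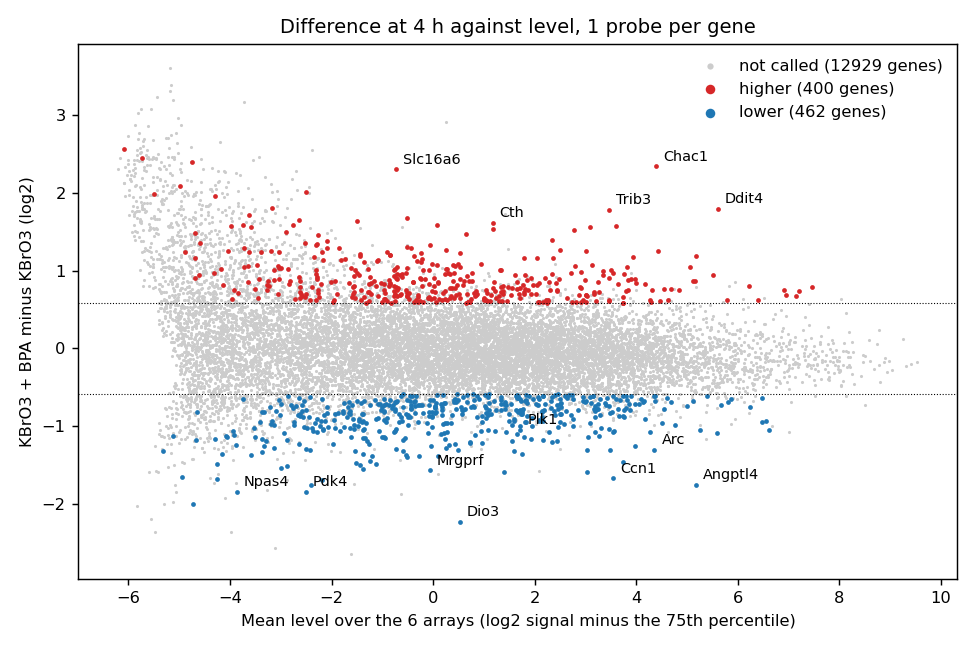
Difference between co-exposed and KBrO3-treated cells at 4 hr (log2) against the mean level of the gene over the 6 arrays, for 13791 genes. Red points are the 400 genes called higher and blue points the 462 called lower, the dotted lines mark a 1.5-fold difference, and the points at the left include 908 genes that passed the filter on dim probes through the co-exposed arrays only.

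Of the genes tested, 12657 were well above background on all 6 arrays, 908 on every co-exposed array but not on every KBrO3 array, and 226 the reverse. The median difference was −0.043 in the first of these sets. It was 1.09 in the second and −0.78 in the third, which the filter formed from genes brighter in 1 group. The first set holds 385 of the genes called higher and 456 of those called lower, the second 15 and 0, and the third 0 and 6.

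Of 24 ATF4 targets listed, 23 were tested, and 15 of these were higher in co-exposed cells and 0 were lower, against 2.90% of all genes called higher. The median difference over the 23 was 0.80, against −0.017 over all genes, and 21 lay above 0. Chac1 was at 3.21, 3.24 and 3.19 on the KBrO3 arrays and at 5.53, 5.60 and 5.54 on the co-exposed arrays, a difference of 2.35 (SE 0.047, adjusted p = 1.75e-10). Ddit4, an inhibitor of the growth kinase mTORC1, was at 4.71, 4.69 and 4.70 and at 6.51, 6.57 and 6.43, a difference of 1.80 (SE 0.050, adjusted p = 7.29e-09). Trib3, a pseudokinase that restrains ATF4 itself, was at 2.60, 2.58 and 2.54 and at 4.37, 4.32 and 4.38, a difference of 1.78 (SE 0.050, adjusted p = 7.21e-09). In each of the 3 genes every co-exposed array lay above every KBrO3 array, by far more than the spread within a group. These genes were named for the size of their differences, so the separation adds no evidence.

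Cth, which makes cysteine from cystathionine, was at 0.34, 0.37 and 0.37 with KBrO3 and at 1.96, 1.96 and 2.01 with both agents, a difference of 1.62 (SE 0.038, adjusted p = 1.08e-09). Ddit3, which encodes the factor CHOP, rose by 1.25 (SE 0.071, adjusted p = 2.48e-05), and Atf4 itself rose by 0.66 (SE 0.059, adjusted p = 0.00384). The other called members were the amino acid transporter subunits Slc7a5 (1.26) and Slc3a2 (0.75), the biosynthetic enzymes Mthfd2 (0.97), Psat1 (0.96), Asns (0.80) and Aldh18a1 (0.70), the lipoprotein receptor Vldlr (1.01), and the stress regulators Nupr1 (1.01) and Atf3 (0.63). The other 8 tested members were not called. Sesn2 at 0.80 and Ppp1r15a at 0.64 were among them, as were the 2 with differences below 0, Cebpb at −0.21 and Stc2 at −0.28.

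**Figure D2:**
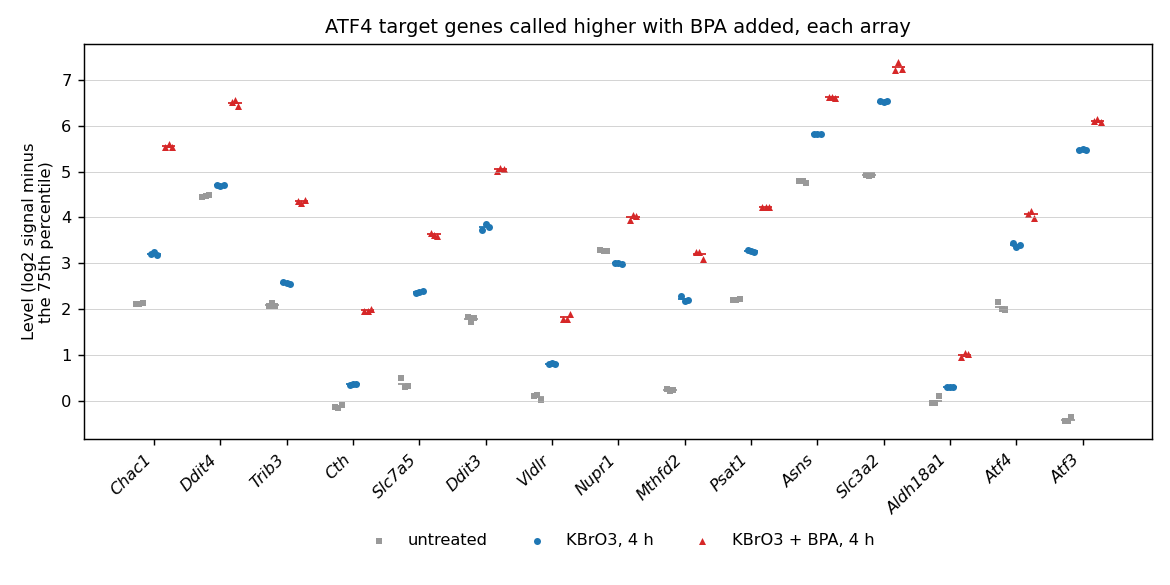
Level of the 15 ATF4 target genes called higher with BPA added (log2 signal minus the array's 75th percentile) on each array of untreated cells (grey squares), KBrO3 (blue circles) and KBrO3 with BPA (red triangles) at 4 hr, with bars for the means. The red points lie above the blue points for every gene, and Atf3 shows its largest step between untreated and KBrO3.

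Chac1 was 1.09 above untreated cells with KBrO3 and 3.44 above with both agents, and Ddit4 was 0.23 and 2.03 above. Atf3, a stress-induced repressor, was already 5.89 above untreated cells with KBrO3 and 6.51 with both. Nupr1 was below untreated cells with KBrO3, at −0.28. Over the tested members the median difference from untreated cells was 0.98 with KBrO3 and 2.02 with both. These differences share the untreated arrays, and each shares treated arrays with the main comparison, so they are levels and no separate evidence.

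The count of 15 depended on the processing. It was 5 with normexp background correction, 9 with median scaling, 9 in the fit to the 6 arrays alone and 10 with slide as a random block, and 0 members were called lower under these settings. Chac1, Ddit4, Trib3 and Cth were called under all 21 alternatives tried.

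The promoters of the 2 ATF4 targets with the largest rise are shown because ATF4 binds a composite element, TGATGNAA, next to C/EBP partners. They are the 250 bases before the RefSeq start site in build GRCm38.p6, written 5′ to 3′ on the strand of the gene, and capitals mark matches to the motifs searched. Chac1 lies on the plus strand of chromosome 2 (chr2:119350992-119351241) and Ddit4 on the minus strand of chromosome 10 (chr10:59951771-59952020).
Chac1: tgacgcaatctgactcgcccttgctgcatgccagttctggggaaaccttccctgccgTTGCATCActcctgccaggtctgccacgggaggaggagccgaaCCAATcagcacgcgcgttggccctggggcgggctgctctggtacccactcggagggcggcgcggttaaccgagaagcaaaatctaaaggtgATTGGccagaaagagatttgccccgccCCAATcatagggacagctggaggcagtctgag
Ddit4: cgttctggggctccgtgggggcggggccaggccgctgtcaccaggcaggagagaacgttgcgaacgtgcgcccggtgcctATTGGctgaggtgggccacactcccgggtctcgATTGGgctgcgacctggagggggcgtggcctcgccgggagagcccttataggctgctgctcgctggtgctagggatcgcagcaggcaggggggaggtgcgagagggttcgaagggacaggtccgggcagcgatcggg
In Chac1 the first capitals, TTGCATCA, starting 193 bases before the start, are the ATF element read on the opposite strand. The other capitals, in both genes, are CCAAT or its reverse complement.

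Of the 15 called ATF4 targets, 13 had RefSeq promoters, 15 in all, and 5 of these held the ATF element, in Asns, Atf3, Chac1, Nupr1 and Vldlr. Among all 32851 promoters of the same length 3.45% held it. The other motifs, each searched on both strands, were TGACNNNGC (the antioxidant response element, in 10.2% of all promoters), TGACGTCA (CRE, 1.55%) and its half-site TGACGT (6.47%), which every CRE contains, GGGNNTTCC (NF-kB, 4.98%), the heat shock element (0.466%), TGANTCA (AP-1, 6.75%), CACGTG (E-box, 6.02%) and the serum response element (1.47%). Among the 15 promoters 0 to 2 held each of these. A match is a description of the letters and not evidence of binding.

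Genes that supply amino acids were examined with 2 further lists, written after the first results were seen. Of 18 amino acid transporters and serine, glycine and one-carbon enzymes 6 were higher and 0 were lower, beside 2.90% of all genes called higher, with a median difference of 0.55. With median scaling 3 were called, with normexp 2 and in the fit to the 6 arrays alone 2. Got1, which makes aspartate, was at 0.37, 0.40 and 0.45 with KBrO3 and at 1.94, 1.91 and 1.98 with both agents, a difference of 1.54 (SE 0.052, adjusted p = 6.32e-08). Gpt2, which makes alanine in mitochondria, differed by 1.33 (SE 0.062, adjusted p = 2.56e-06), and Psph, the last enzyme of serine synthesis, by 1.18 (SE 0.034, adjusted p = 1.22e-08). The glycine transporter Slc6a9 (1.05), mitochondrial Pck2 (0.99) and the neutral amino acid transporter Slc1a4 (0.74) also rose. Among 20 cytosolic aminoacyl-tRNA synthetases 3 were higher and 0 lower, beside the same 2.90%, namely those for cysteine (Cars, 0.73), glycine (Gars, 0.70) and isoleucine (Iars, 0.75). None of these 3 synthetases passed with median scaling, with normexp, in the fit to the 6 arrays alone or with slide as a random block. The unfolded protein response of the endoplasmic reticulum showed 1 call among 21 genes (4.76%, beside 6.25% of all genes called), Herpud1, a component of protein degradation there, which was 0.98 higher (SE 0.076, adjusted p = 0.000853) but did not pass with median scaling, with normexp or with slide as a random block. The chaperone Hspa5 differed by 0.059 (SE 0.078) with the spot of 1 array set aside as an outlier, and Xbp1 by −0.18, neither of them called.

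Of 29 mitosis genes 13 were lower in co-exposed cells and 0 were higher, against 3.35% of all genes called lower. All 29 had differences below 0, with a median of −0.51, and 28 did under quantile normalization, under normexp and with slide as a random block. Cdc25b, a phosphatase that activates CDK1, was at 1.94, 2.00 and 1.96 with KBrO3 and at 0.91, 0.88 and 0.88 with both agents, a difference of −1.07 (SE 0.095, adjusted p = 0.00329), while its second probe, at −0.50, was not called. Plk1, a kinase of mitotic entry and exit, was at 2.25, 2.23 and 2.25 and at 1.20, 1.20 and 1.20, a difference of −1.04 (SE 0.055, adjusted p = 9.84e-06). The 3 co-exposed arrays lay below the 3 KBrO3 arrays for both genes, and those lay below untreated cells, at 3.43 for Cdc25b and 3.71 for Plk1 on average. Both genes were named for their called differences, so the separation of the exposures is no separate evidence.

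Nusap1, which bundles spindle microtubules, fell by 0.95 (SE 0.043, adjusted p = 2.02e-06), and Cdc20, an activator of the anaphase-promoting complex, fell by 0.88 (SE 0.051, adjusted p = 3.47e-05). The kinesins Kif23 (−0.86) and Kif11 (−0.69), cytokinesis factor Prc1 (−0.82), centromeric histone Cenpa (−0.81), cyclin Ccnb1 (−0.80), kinase Nek2 (−0.69), proliferation marker Mki67 (−0.68), ubiquitin-conjugating Ube2c (−0.63) and Birc5 (−0.61) completed the called members. Cdk1 itself differed by −0.010 (SE 0.17), and Aurka, at −0.51, passed the adjusted p but not the 1.5-fold limit. The median difference from untreated cells was −0.79 with KBrO3 and −1.46 with both agents. In a population of cells, fewer cells in mitosis and less RNA per cell cannot be told apart. The count of 13 was 0 with normexp, 5 in the fit to the 6 arrays alone, 6 with slide as a random block and 8 with median scaling.

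**Figure D3:**
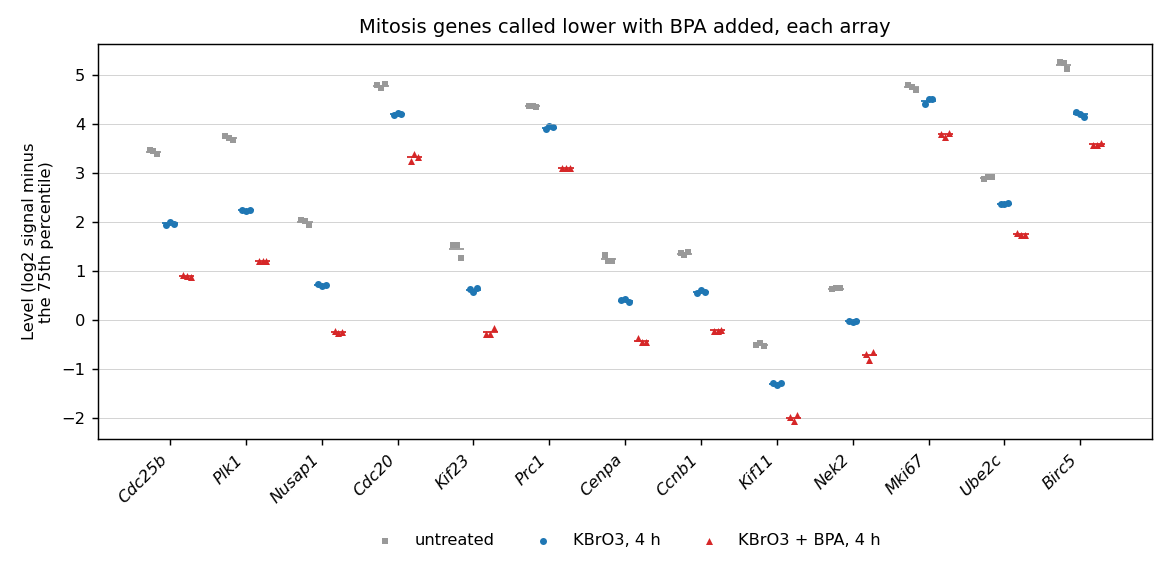
Level of the 13 mitosis genes called lower with BPA added (log2 signal minus the array's 75th percentile) on each array of untreated cells (grey squares), KBrO3 (blue circles) and KBrO3 with BPA (red triangles) at 4 hr, with bars for the means. The order from untreated to KBrO3 to co-exposed is downward for every gene.

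Many mitotic genes are known to be driven from short promoters with CCAAT boxes, bound by NF-Y, and a CHR element, TTTGAA, and the promoters of the 2 mitosis genes with the largest fall are shown for that reason. Cdc25b lies on the plus strand of chromosome 2 (chr2:131186698-131186947) and Plk1 on the plus strand of chromosome 7 (chr7:122159185-122159434) of GRCm38.p6. Capitals mark CCAAT or its reverse complement, ATTGG.
Cdc25b: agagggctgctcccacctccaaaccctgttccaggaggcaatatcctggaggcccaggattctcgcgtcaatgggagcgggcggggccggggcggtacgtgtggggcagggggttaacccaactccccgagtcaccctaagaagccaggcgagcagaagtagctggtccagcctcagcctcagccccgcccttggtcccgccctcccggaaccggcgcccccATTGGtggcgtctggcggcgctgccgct
Plk1: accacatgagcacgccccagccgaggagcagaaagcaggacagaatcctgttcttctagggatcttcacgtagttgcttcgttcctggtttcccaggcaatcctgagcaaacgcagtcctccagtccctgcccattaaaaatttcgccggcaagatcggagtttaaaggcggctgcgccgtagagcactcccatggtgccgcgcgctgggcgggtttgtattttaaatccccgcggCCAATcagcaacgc
The box begins 28 bases before the start in Cdc25b and 14 bases before it in Plk1. Of the 14 promoters of the 13 called mitosis genes, 12 held CCAAT and 5 held TTTGAA, and among all promoters 33.8% and 16.0% did. Both motifs were added after the promoters had been looked at, and 7 of the 15 ATF4 target promoters held CCAAT and 1 held TTTGAA.

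DNA replication and S phase genes showed no such pattern. Of 42 genes 2 were lower, Tk1, a salvage kinase for thymidine (a fall of 0.67), and Rrm1, a subunit of ribonucleotide reductase (a fall of 0.61), 0 were higher, beside 3.35% of all genes called lower, and the median difference was −0.057. Tk1 averaged 2.15 with KBrO3 and 1.48 with both agents. Both calls were lost with median scaling, with normexp, in the fit to the 6 arrays alone, with slide as a random block and with the replicate block.

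Dio3 was at 1.65, 1.64 and 1.63 on the KBrO3 arrays and at −0.59, −0.60 and −0.58 on the co-exposed arrays, a difference of −2.23 (SE 0.083, adjusted p = 2.17e-07), and it was at 3.09, 3.06 and 2.93 in untreated cells. Pdk4 was at −1.62, −1.58 and −1.57 and at −3.46, −3.28 and −3.56, a difference of −1.84 (SE 0.076, adjusted p = 6.75e-07). Angptl4, a secreted inhibitor of lipoprotein lipase, was at 6.02, 6.07 and 6.04 and at 4.28, 4.31 and 4.29, a difference of −1.75 (SE 0.079, adjusted p = 1.89e-06). The groups did not overlap in any of the 3, which were named for the size of their differences, so this is no separate evidence. Pdk4, Angptl4 and Cpt1a, which admits fatty acids to mitochondria (−0.79), were the 3 called members of a list of 13 PPAR targets written after the first results were seen, beside 3.35% of all genes called lower. None of the 13 was higher and the median was −0.51, and normexp and the fit to the 6 arrays alone each left 1 called. Pparg, a receptor of this family that is reported to bind BPA, fell by 0.70 (SE 0.038, adjusted p = 1.22e-05), and the thyroid hormone receptor Thra fell by 0.82 (SE 0.052, adjusted p = 7.40e-05). They were the called members among 12 tested receptors reported to bind BPA and estrogen targets, beside the same 3.35%, and 1 was called with slide as a random block and 0 with normexp or in the fit to the 6 arrays alone. The estrogen receptor Esr1, at −3.51, −3.45 and −3.50 with KBrO3 and −3.41, −3.55 and −3.60 with both, differed by −0.032 (95% interval −0.19 to 0.12).

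Targets of the mechanical signaling factors YAP and TEAD, another list written after the first results, held 4 lower and 0 higher genes among 14, beside 3.35% of all genes called lower, with a median of −0.51. Slide as a random block left 2 called and normexp 0. Ccn1, a matrix protein, was at 4.36, 4.37 and 4.39 with KBrO3 and at 2.69, 2.69 and 2.74 with both agents, a difference of −1.67 (SE 0.045, adjusted p = 5.00e-09). Its relative Ccn2 was at 5.27, 5.26 and 5.25 and at 4.27, 4.26 and 4.31, a difference of −0.98 (SE 0.037, adjusted p = 2.41e-07). For both genes KBrO3 stood above untreated cells (by 0.49 and 0.74) and co-exposure stood below them (at −1.18 and −0.24). The kinase Nuak2 fell by 1.19 and the junction protein Amotl2 by 0.76. Ankrd1, another well-known target, differed by 0.70 with an SE of 0.45. The remaining large falls were in Npas4 (−1.84), an activity-induced transcription factor, Chst1 (−1.75), a sulfotransferase, Tnni2 (−1.69), a troponin subunit, Tmem37 (−1.68, with a second probe at 0.99 that was not called), Midn (−1.59), Klc4 (−1.59), a kinesin light chain, Mrgprf (−1.56) and Blnk (−1.55), an adaptor of B-cell receptor signaling. Npas4 was at −4.68 on average in untreated cells, at −2.95 with KBrO3 and at −4.79 with both agents.

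Some genes that stood high with KBrO3 were lower when BPA was present. Among 26 immediate early genes, which respond to stimuli without new protein synthesis, 4 were lower and 0 higher, beside 3.35% of all genes called lower, and with normexp 1 was called. Arc was at 0.39, 0.38 and 0.45 in untreated cells, at 5.01, 5.01 and 4.99 with KBrO3 and at 3.68, 3.76 and 3.67 with both agents, a difference between the exposures of −1.30 (SE 0.084, adjusted p = 0.000111). Nr4a1, an orphan nuclear receptor, was at 1.93, 6.13 and 5.05 on average in these groups and differed by −1.09 (SE 0.035, adjusted p = 3.60e-08). Both stayed well above untreated levels with BPA present. Maff, a small MAF factor, fell by 1.25 and Srf, the serum response factor, by 0.60. Fos at −0.38 and Egr1 at −0.30 were not called. The phosphatases Dusp2, at 1.38, 1.45 and 1.32 with KBrO3 and 0.27, 0.19 and 0.35 with both, and Dusp1, at 3.00, 3.00 and 3.06 and 2.23, 2.18 and 2.24, were the 2 lower genes in a list of 20 that joins genes known to feed back on ERK with ligands of the EGF family, beside the same 3.35%, with differences of −1.11 and −0.80. The list median was −0.43, and 1 of the 20 was called with slide as a random block and 0 with normexp or in the fit to the 6 arrays alone. The small heat shock proteins Cryab (−0.94) and Hspb1 (−0.62) were the 2 lower genes of 16 in the heat shock list, beside 3.35%, whose median was −0.043 and of which 0 were called with normexp.

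NRF2 is the factor that induces antioxidant genes, and 2 of its 29 targets were lower and 0 higher, which is 6.90% against 6.25% of all genes called. Gsta1, a glutathione transferase, was at −5.42, −5.61 and −5.70 in untreated cells, at 2.09, 2.06 and 2.05 with KBrO3 and at 1.27, 1.23 and 1.28 with both agents, a difference between exposures of −0.80 (SE 0.060, adjusted p = 0.000512). Gclm, the modifier subunit of the enzyme that starts glutathione synthesis, fell by 0.60 (SE 0.051, adjusted p = 0.0022). Heme oxygenase Hmox1, at 9.19, 9.13 and 9.25 with KBrO3 and 9.36, 9.40 and 9.18 with both, differed by 0.12 (95% interval −0.015 to 0.26). Srxn1 at −0.26, Txnrd1 at −0.21 and Nqo1 at 0.33 were not called. With quantile normalization, with normexp and with slide as a random block 0 of the 29 were called. The 29 stood at a median of 1.66 above untreated cells with KBrO3 and 1.54 with both agents.

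Some inflammatory genes were higher with BPA present. Of 29 NF-kB targets, cytokines and chemokines 5 were called higher by their brightest probe, beside 2.90% of all genes, with a list median of 0.37, but 0 were called with normexp, with slide as a random block or with the replicate block. Ccl20, Il1rn, Lcn2 and Tnfaip2 were higher, and the fifth, Birc3, has no settled direction. Ccl20, a chemokine for lymphocytes, was at 2.82, 2.83 and 2.78 with KBrO3 and at 4.42, 4.29 and 4.45 with both agents, a difference of 1.57 (SE 0.15, adjusted p = 0.00776). It also differed by up to 0.63 between slides within a group. Il1rn, the antagonist of the interleukin-1 receptor, was 1.27 higher and Lcn2, an iron-binding acute phase protein, 0.70 higher, and Tnfaip2 rose by 0.59. The 2 probes of Birc3, an inhibitor of apoptosis, disagreed, with differences of 0.80 and −0.66 that both passed the test. Of 25 interferon-response genes 5 were higher and 0 lower, beside 2.90% of all genes called higher, namely Cd274, the ligand of PD-1 (1.24), Ifit3 (1.19), the factor Irf1 (0.87), Ifit1 (0.75) and Gbp2 (0.59). The list median was 0.14, and −0.0034 with median scaling, and with normexp 0 of the 25 were called. Ifit3 was at 5.61, 5.56 and 5.67 in untreated cells, at 4.56, 4.60 and 4.58 with KBrO3 and at 5.76, 5.81 and 5.72 with both, so its level with KBrO3 was the lowest of the 3 groups. For Ifit3 and Irf1 the second probe of the gene was not called.

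Of 27 genes of cholesterol and fatty acid synthesis 4 were higher and 0 lower, beside 2.90% of all genes called higher, with a median of 0.38 and 20 genes above 0. They were Mvd, at 1.79, 1.78 and 1.78 with KBrO3 and 2.90, 3.01 and 2.92 with both agents (1.16, SE 0.092, adjusted p = 0.000968), Lss (0.80), Fdps (0.63) and Pmvk (0.61), all enzymes between mevalonate and sterols. Other probes differed by 2.12 for Fdps, by 1.18 and 0.48 for Lss and by 0.71 for Pmvk, all called except the 0.48. With median scaling, with normexp and with slide as a random block 0 of the 27 were called, and in the fit to the 6 arrays alone and with the replicate block 1 was.

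Among DNA repair genes 3 of 25 were called in base excision and single-strand break repair, 3 of 35 (8.57%) in double-strand break repair and 1 of 23 (4.35%) in nucleotide excision repair, beside 6.25% of all genes. With median scaling, with normexp and with slide as a random block 0 genes of the 3 lists were called, and in the fit to the 6 arrays alone and with the replicate block 1 gene each was, in the first list. In base excision and single-strand break repair 2 of 25 were higher and 1 lower, with a median of 0.031. Mbd4, a glycosylase for thymine opposite guanine, was at −2.31, −2.47 and −2.53 with KBrO3 and at −1.56, −1.58 and −1.59 with both agents, a difference of 0.86 (SE 0.053, adjusted p = 5.78e-05). Mutyh, which removes adenine opposite oxidized guanine, was 0.65 higher, with 1 of its 3 probes called, and the nuclease Apex2 fell by 0.87, with 1 of its 2 probes called. Mbd4 and Mutyh lay below untreated cells with both exposures, Mbd4 by 2.14 with KBrO3 and 1.28 with both. Ogg1, the glycosylase for oxidized guanine, was at 0.40, 0.44 and 0.36 with KBrO3 and at 0.20, 0.13 and 0.17 with both agents, and its difference of −0.23 (95% interval −0.39 to −0.077) was not called. Polb differed by 0.57 at its brightest probe and by 0.23 and −0.28 at others, Xrcc1 by −0.086, Parp1 by −0.18 and Apex1 by 0.19, none of them called.

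In double-strand break repair and checkpoint signaling 3 of 35 genes were higher and 0 lower, the recombination factors Rad51c (0.88) and Rad52 (0.67) and the end-joining ligase Lig4 (0.85), with a median of 0.13. Lig4 was at −0.34, −0.31 and −0.34 with KBrO3 and at 0.46, 0.44 and 0.65 with both, and both of its probes were called. In nucleotide excision repair Uvssa (0.60) was the 1 call among 23, with 1 of its 3 probes called, and Ercc6 at 1.05 (SE 0.11) was not called. Among 26 p53 targets 1 was higher and 2 were lower, which is 11.5% beside 6.25% of all genes called. Gadd45a, a sensor of genotoxic stress, was at 2.33, 2.29 and 2.32 with KBrO3 and at 3.93, 3.78 and 3.90 with both agents, a difference of 1.56 (SE 0.076, adjusted p = 4.21e-06). Phlda3, an inhibitor of AKT, fell by 0.72 and the RNA-binding Zmat3 by 0.65, whereas Cdkn1a at −0.17 and Mdm2 at −0.33 were not called. With normexp, in the fit to the 6 arrays alone, with slide as a random block and with the replicate block 1 p53 target was called, and it was higher. Apaf1, the core of the apoptosome, fell by 1.03 and was the 1 call among 22 apoptosis genes (4.55%, beside the same 6.25%). Its other probes differed by −0.0049 and −0.54 and were not called. The call was lost under 12 of the 21 alternatives, namely median scaling, normexp, no filter on dim probes, the fit to the 6 arrays alone, slide as a random block, the replicate block and the omission of any 1 of the 6 arrays. The fit to the 6 arrays alone, in which a gene's brightest probe can differ, called 1 of the 22 apoptosis genes lower.

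**Figure D4:**
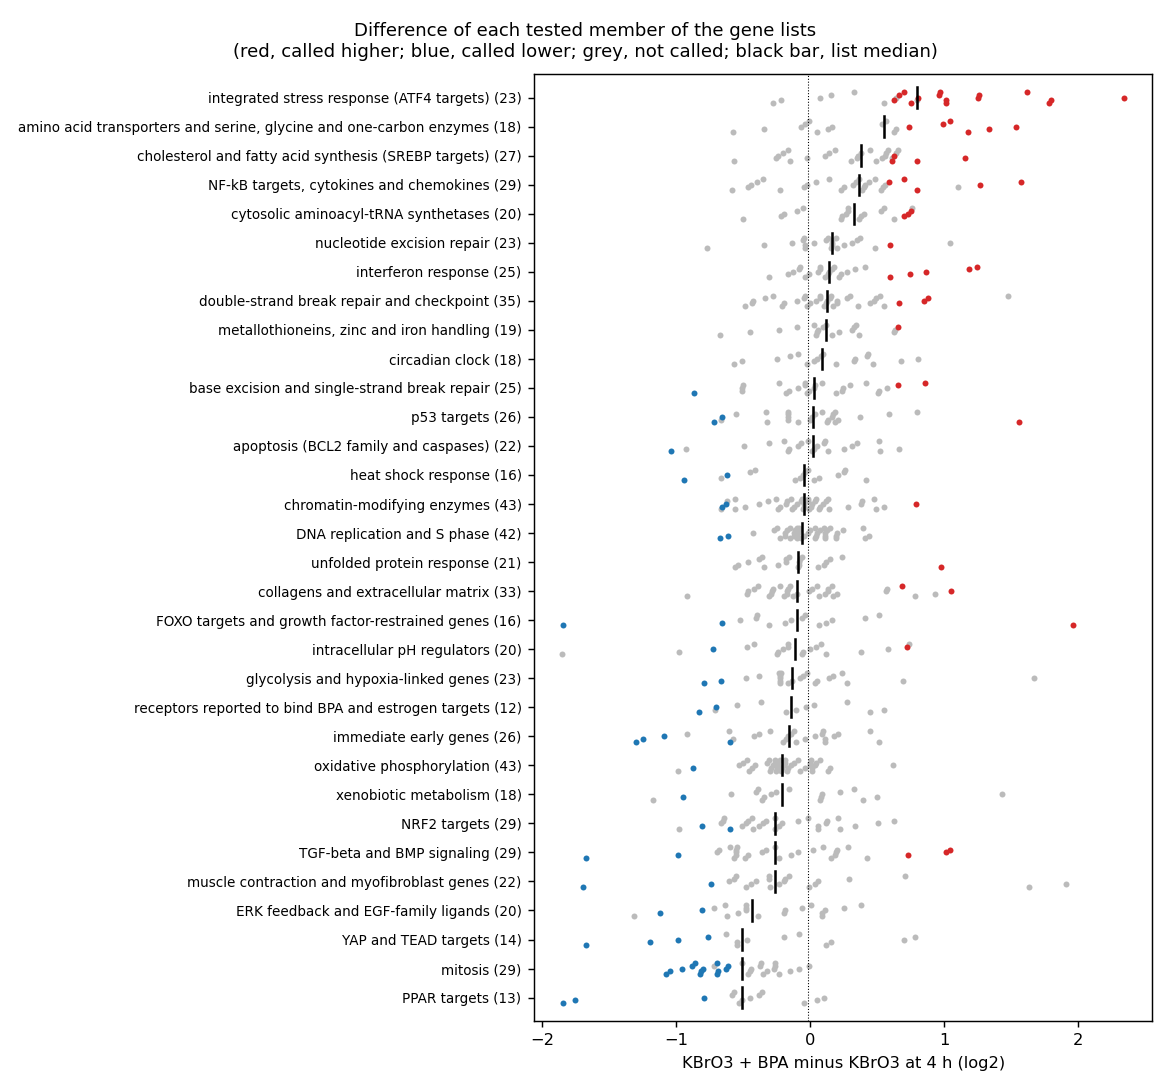
Difference of each tested member between co-exposed and KBrO3-treated cells at 4 hr (log2), by gene list with the number of tested members in brackets, ordered by list median (black bar). ATF4 targets stand at the top with a median of 0.80 and mitosis genes, YAP and TEAD targets and PPAR targets at the bottom with medians of −0.51.

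The other lists had 0 to 5 calls each, to be read beside the 6.25% of all genes called. TGF-beta and BMP signaling had 3 higher genes, Grem1 (1.04), Bmp2 (1.01) and Tgif1 (0.73), and 2 lower, Ccn1 and Ccn2, among 29, and 0 with normexp. The matrix list of 33 had Tnc (1.05), the glycoprotein tenascin C, and Mmp3 (0.69), a matrix protease, higher. Tnc was at 2.26, 2.28 and 2.29 with KBrO3 and at 3.40, 3.24 and 3.35 with both, while its other probes differed by −0.045 and 0.82 and were not called. With median scaling, with normexp, in the fit to the 6 arrays alone and with slide as a random block 0 genes of the matrix list were higher. In the fit to the 6 arrays alone 1 was called lower. Bnip3 and Adm fell by 0.66 and 0.79 among 23 genes of glycolysis and hypoxia, and 0 of the 23 were called with normexp or in the fit to the 6 arrays alone. The list of 16 FOXO factors, their targets and other genes restrained by growth factors had the factor Foxo1 (−0.66) and Pdk4 (−1.84) lower and Klf15 higher, and 0 called with normexp or in the fit to the 6 arrays alone. Ahrr, the repressor of the aryl hydrocarbon receptor, fell by 0.95 and was the 1 call among 18 xenobiotic metabolism genes, lost with normexp and in the fit to the 6 arrays alone. Slc11a2, an iron transporter, was 0.65 higher among 19 genes of metal handling, with 1 of its 3 probes called, and did not pass with median scaling, with normexp, in the fit to the 6 arrays alone or with slide as a random block. Oxidative phosphorylation had 1 call among 43 genes (2.33%) with a median of −0.21, chromatin-modifying enzymes 3 among 43 (6.98%), intracellular pH regulators 2 among 20, and muscle contraction genes 2 among 22. In each of these 4 lists 0 were called with normexp, and in some of them also with median scaling, in the fit to the 6 arrays alone or with slide as a random block. In limma 0 of 18 clock genes were called, also in the fits with other scalings, normexp or a block. An unadjusted limma p below 0.05 was found for 11 of the 18, beside 9087 of all 13791 genes tested.

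Among the remaining large rises, Slc16a6 was at −1.95, −1.77 and −1.93 with KBrO3 and at 0.42, 0.45 and 0.40 with both agents, a difference of 2.31 (SE 0.048, adjusted p = 2.57e-10). Rasgef1a, an exchange factor for RAS-family proteins, was at −3.55, −3.43 and −3.57 and at −1.46, −1.56 and −1.49, a difference of 2.02 (SE 0.059, adjusted p = 1.22e-08). Lpar4, a lysophosphatidic acid receptor, was at −0.74, −0.75 and −0.64 and at 0.92, 0.86 and 0.87, a difference of 1.59 (SE 0.039, adjusted p = 1.44e-09). Rasgef1a and Lpar4 lay below untreated cells with KBrO3 and above them with both agents. Nt5e, which makes adenosine outside the cell, rose by 1.68, the splicing factor Rbfox1 by 1.66 and the mitochondrial RNA methyltransferase Nsun3 by 1.64. Tcp10b (1.81) and Prl3d1 (1.59) were also among the 12 largest, but they shifted by 0.55 and 0.65 between the slides of the KBrO3 24 hr group.

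Some called genes had no signal well above background in 1 of the groups, and for them only a bound can be given, set in the dim group by the lowest signal well above background on each array or by the gene's own signal where that was higher. The bounds are taken from group means and make no allowance for sampling error. By its brightest probe the transcription factor Klf15 was at least 3.8-fold higher in co-exposed cells (means of −5.28 with KBrO3 and −3.31 with both). It stood at 0.35 in untreated cells, and its second probe, with a smaller difference of 0.80, was not called. Taf7l was at least 3.34-fold, Rab39b at least 2.52-fold and Mettl8 at least 2.36-fold higher. Tlr6, a receptor for bacterial lipopeptides, was at least 3.29-fold lower (means of −3.73 and −5.73). Csf2rb2 was at least 2.51-fold, Rasl10a at least 1.85-fold and Hoxa5 at least 1.74-fold lower.

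The same comparison was made on other arrays at 24 hr, and the change of the difference between the times was tested in the same fit. It was called for 716 of 13791 genes (5.19%), 464 upward and 252 downward. Chac1 (1.75 at 24 hr), Ddit4 (1.52), Trib3 (2.24), Cth (2.18), Plk1 (−0.80), Dio3 (−2.04) and Ccn1 (−1.68) had no called change, which does not show that their differences were equal. Gsta1 went from −0.80 to 1.05, a change of 1.85 (SE 0.085, adjusted p = 2.14e-06). Phlda3 went from −0.72 to 1.19, a change of 1.91 (SE 0.099, adjusted p = 8.94e-06). Bmp2 went the opposite way, from 1.01 to −1.30, a change of −2.31 (SE 0.088, adjusted p = 2.53e-07). In these 3 genes the higher group at 4 hr was the lower group at 24 hr. Replicate 1 of KBrO3 at 24 hr lay on 1 slide with the 3 arrays of co-exposure at 4 hr and had 68.1% of spots well above background, against 59.6% and 62.1% for the others of its group. Without it 548 changes were called.

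**Figure D5:**
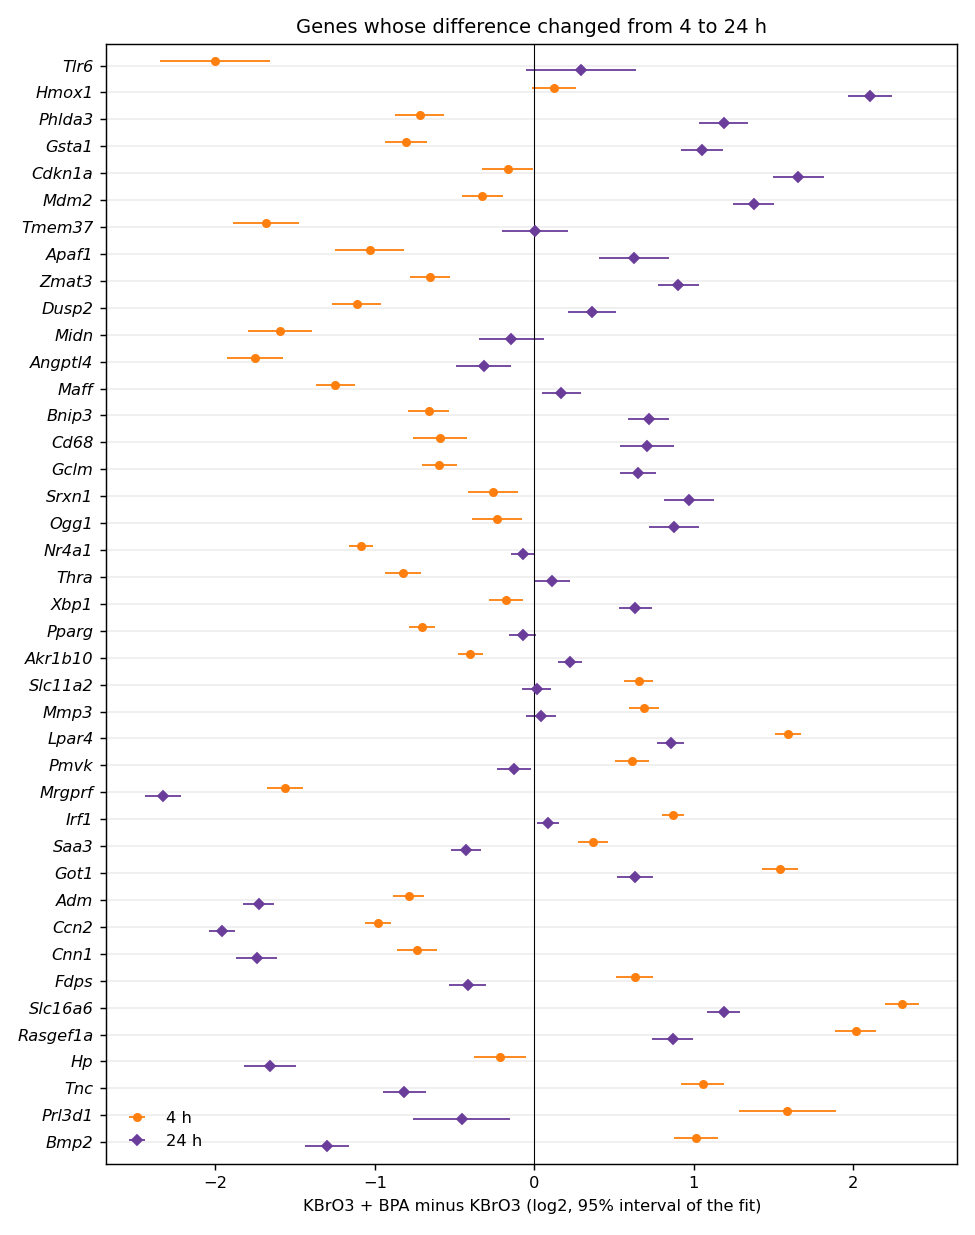
Difference between co-exposed and KBrO3-treated cells (log2) at 4 hr (orange circles) and 24 hr (purple diamonds) with 95% intervals of the fit, for the 41 of 214 genes named by the rule or in the text whose change between the times was called. Genes are ordered by the change, and 24 of them lie on opposite sides of 0 at the 2 times, of which Thra, Tlr6 and Tmem37 have 24 hr intervals that include 0.

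BPA alone at 4 hr was measured in the second array set against untreated cells of that set, so its values stand beside those above without a test between sets. Chac1 was 2.27 higher with BPA alone (SE 0.29, Benjamini-Hochberg adjusted p = 0.00418 in limma) and Slc16a6 2.96 higher (adjusted p = 0.00898). Gadd45a was 2.14 higher (adjusted p = 0.00306), Trib3 1.32 (adjusted p = 0.0425) and Ccl20 5.98 (adjusted p = 0.000178). Ddit4 differed by 0.31 (adjusted p = 0.511), which did not pass. Dio3, lower by 2.23 when BPA was added to KBrO3, was 1.84 higher with BPA alone (SE 0.33, adjusted p = 0.0162). Angptl4, lower by 1.75 in the main comparison, was at 2.09 with BPA alone (adjusted p = 0.0474). Plk1 differed by −0.83 (adjusted p = 0.0873) and Ccn1 by 0.66 (adjusted p = 0.0923), neither past 0.05.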

How the data were processed

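Total RNA of Ku70-/- MEFs was labeled with Cy3 and hybridized to Agilent 1-color arrays. The authors deposited Feature Extraction output with a processed signal intensity for each spot, which is background-subtracted and not scaled between arrays; per the file headers the first set was read with version 9.5.3.1 and the second with 12.0.0.7. The deposited series table held the same intensity values. The study's own error-weighted analysis of variance with a Bonferroni adjustment was replaced by limma.

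Outlier and control spots were left out, log2 intensity was set relative to the 75th percentile of each array, and spots of a probe were averaged. Probes were named by RefSeq tables (32734 of 41174 matched) and a gene was represented by its brightest tested probe. A probe was tested where it was well above background on all 3 arrays of either group. limma 3.58.1 in R 4.3.3 was fitted to the 15 arrays of the first set (10 residual degrees of freedom), with Bonferroni adjustment over 26085 probes, a threshold of 0.01 and a 1.5-fold limit, after a test on simulated data. The 3 arrays of a group are biological replicates per the study's methods. The number of arrays limits the precision.

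Members and gene lists were chosen with earlier results of these data known, and 4 lists (amino acid supply, tRNA synthetases, YAP and PPAR targets) were written after the first results were seen. Named genes were Xrcc6, the 12 largest rises and 12 largest falls among called genes well above background on all 6 arrays, up to 5 largest bounds in each direction, up to 4 called members of each list (or the member with the largest difference where none was called), and genes the study's text names, of which a selection is given. Some genes that this rule names are not reported here. Naming every called ATF4 target and mitosis gene, and Ogg1 and single members not called, was chosen after their values were seen. Alternatives covered scaling, background, filter, adjustment, arrays in the fit, slide, replicate number, weights, variance trend, probe choice, outlier spots, value source and each array left out. The main fit did not pair arrays by replicate number. Deviations of same-numbered arrays correlated by 0.027, 0.0091 and −0.031, which does not settle whether they shared a culture batch.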

Additional observations from a re-analysis of the deposited data

Results flagged for a closer look

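The difference between co-exposed and KBrO3-treated cells at 24 hr departed from that at 4 hr for 41 of 214 genes named by the rule or in the text, 23 upward and 18 downward, by limma's test of the change itself at a Bonferroni-adjusted p below 0.01 and more than 1.5-fold. Over all genes tested 5.19% were called. Many of the 214 were named for their 4 hr difference, which enters the change tested (130 of them were called at 4 hr, and 31 of the 41), so nothing is read from the share called among them. Values below are the 24 hr difference minus the 4 hr difference on the log2 scale, and a positive value means that co-exposed cells moved up relative to KBrO3-treated cells. Akr1b10, Cd68, Cdkn1a, Hmox1, Hp, Mdm2, Ogg1, Saa3, Srxn1 and Xbp1 were not called at 4 hr. The difference lay on opposite sides of 0 at the 2 times for 24 genes. The 95% interval at 24 hr excluded 0 for 21 of the 24 and included it for Thra (0.11), Tlr6 (0.29) and Tmem37 (0.0041 at 24 hr), and the 24 hr differences of Maff (0.17) and Pmvk (−0.13) were small. Tlr6 was not well above background in co-exposed cells at 4 hr, so its change is no exact value. Upward changes with opposite signs at the 2 times were found for Akr1b10 (0.62), Apaf1 (1.66), Bnip3 (1.38), Cd68 (1.30), Cdkn1a (1.82), Dusp2 (1.48), Gclm (1.25), Gsta1 (1.85), Maff (1.42), Mdm2 (1.70), Ogg1 (1.11), Phlda3 (1.91), Srxn1 (1.23), Thra (0.93), Tlr6 (2.29), Tmem37 (1.69), Xbp1 (0.81) and Zmat3 (1.56). The other upward changes were in Angptl4 (1.43), Hmox1 (1.98), Midn (1.45), Nr4a1 (1.02) and Pparg (0.63). Downward changes with opposite signs at the 2 times were found for Bmp2 (−2.31), Fdps (−1.05), Pmvk (−0.73), Prl3d1 (−2.04), Saa3 (−0.80) and Tnc (−1.87), and the other downward changes were in Adm (−0.94), Ccn2 (−0.98), Cnn1 (−1.01), Got1 (−0.91), Hp (−1.44), Irf1 (−0.78), Lpar4 (−0.73), Mmp3 (−0.65), Mrgprf (−0.76), Rasgef1a (−1.15), Slc11a2 (−0.64) and Slc16a6 (−1.12). Without replicate 1 of KBrO3 at 24 hr, which lay on 1 slide with the 3 arrays of co-exposure at 4 hr, 34 of the 41 calls were kept and 7 were lost, those of Cd68, Midn, Mmp3, Ogg1, Pmvk, Slc11a2 and Tlr6, and 0 changed sign.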

How the results depend on the processing

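In the main analysis 862 genes were called at 4 hr (400 higher, 462 lower), 716 changes between the times, 15 ATF4 targets and 13 mitosis genes. Median scaling gave 450 called genes, 115 higher, 401 changes, 9 ATF4 targets and 8 mitosis genes. Normexp gave 53 genes, 39 higher and 14 lower, 39 changes, 5 ATF4 targets and 0 mitosis genes, and its median residual SD was 0.191 against 0.0900. A Benjamini-Hochberg adjusted p below 0.05 gave 2711 genes, 1466 higher and 1245 lower, and 3671 changes. The fit to the 6 arrays alone gave 311 genes, 133 higher and 178 lower, 9 ATF4 targets and 5 mitosis genes. Slide as a random block gave 266 genes, 118 higher and 148 lower, 328 changes and 6 mitosis genes. With the replicate number as a block 525 genes were called, 247 higher and 278 lower, with 368 changes. The labels do not say whether same-numbered arrays shared a culture batch. Leaving out 1 array at a time gave 495 to 865 genes, 228 to 443 higher, 257 to 422 lower, 408 to 548 changes, 10 to 14 ATF4 targets and 9 to 13 mitosis genes. The upper ends of the gene counts came without replicate 1 of KBrO3 at 24 hr, which was chosen for omission after seeing the data. Each of the 6 arrays compared, when left out, lowered the counts of called genes and of changes by over 1.5 times, with 495 genes called without replicate 2 of KBrO3. The cause of these shifts was not tested. The other alternatives kept the counts within 1.5 times. Of 130 genes named by the rule or in the text and called at 4 hr, 0 reversed under any alternative and 11 kept their call under all 21, while 13 kept it under normexp, 50 in the fit to the 6 arrays alone and 53 with slide as a random block. Genes not well above background in 1 group were given as bounds.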
